A study of Mus musculus with 2 samples.

Results

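Small nucleolar RNAs (snoRNAs) that could be counted in mouse heart are described here. They were defined as the genes whose transcripts all carried the biotype snoRNA and which had an expected count of at least 10 in each of 2 heart libraries. Of 55536 annotated genes, 1507 were snoRNA genes, and 50 of these reached the minimum. By symbol, 4 of the 50 were box C/D snoRNAs (Snord), 10 were box H/ACA snoRNAs (Snora) and 36 had other names, among them 1 Cajal body RNA (Scarna10), 9 gene entries of the U3 snoRNA (Rnu3a and Rnu3b) and 26 genes with a Gm number as symbol. Total RNA from the heart of female B6CASTF1/J mice, the first-generation cross of C57BL/6J and CAST/EiJ, was sequenced at 14 days of age, each library from 300 ng, with an ERCC spike-in profile for stranded libraries reduced in ribosomal RNA. The series held 1 group of 2 libraries, so there was no treatment or control and no groups could be compared. Both libraries carried the same donor label. A shared description speaks of 3 females and the tissue labels give different animal numbers, so it is not settled whether the libraries came from separate animals, and each SD (n = 2) below may be technical. Myh6, the cardiac myosin heavy chain that marks heart muscle, stood at 10296 and 10478 TPM in replicates 1 and 2, where TPM is a level per length scaled to the library.

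Most snoRNAs are cut from the introns of host genes, many of which code for proteins of the ribosome or of translation. Box C/D snoRNAs carry a C box near the start and a D box near the end, bind fibrillarin and guide ribose methylation of ribosomal RNA. Box H/ACA snoRNAs end with an ACA box, bind dyskerin and guide the change of uridine to pseudouridine. A few, such as U3, U8, U22 and U17, are needed for the cleavage of the ribosomal RNA precursor, and relatives kept in Cajal bodies modify the small nuclear RNAs of the spliceosome.

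The sequences of the genes that the results turn on are shown first, from the GENCODE M21 transcripts of mm10, the C57BL/6J reference, 5′ to 3′. How far the CAST/EiJ alleles of these animals differ was not analysed here. The 3 U17 genes end with an ACA box, in capitals, 3 bases before the end. Snora73b lies at chr4:132352322-132352526 on the minus strand, Snora73a at chr4:132352775-132352979 on the minus strand and Gm26448 at chr9:120129351-120129553 on the plus strand.
Snora73b: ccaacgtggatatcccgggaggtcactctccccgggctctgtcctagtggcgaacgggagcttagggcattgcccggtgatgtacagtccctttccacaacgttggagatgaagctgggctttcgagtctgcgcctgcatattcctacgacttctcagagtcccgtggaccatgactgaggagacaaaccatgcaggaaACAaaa
Snora73a: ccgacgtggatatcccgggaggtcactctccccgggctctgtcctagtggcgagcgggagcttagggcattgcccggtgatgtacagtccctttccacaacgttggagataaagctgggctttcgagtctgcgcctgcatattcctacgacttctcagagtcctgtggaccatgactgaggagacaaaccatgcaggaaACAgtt
Gm26448: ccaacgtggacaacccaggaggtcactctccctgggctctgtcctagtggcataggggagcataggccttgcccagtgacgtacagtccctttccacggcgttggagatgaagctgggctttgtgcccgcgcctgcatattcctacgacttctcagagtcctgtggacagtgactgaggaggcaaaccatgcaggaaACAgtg
Both U3 forms are shown because the Rnu3b sequence, in 2 lengths that differ by the last base, was annotated 8 times. In these the first match of the C box letters TGATGA lies in the body of the RNA, and the D box letters CTGA lie near the end, both in capitals. Rnu3a is at chr10:40258467-40258680 and the shown copy of Rnu3b1 at chr11:87443237-87443451, both on the plus strand.
Rnu3a: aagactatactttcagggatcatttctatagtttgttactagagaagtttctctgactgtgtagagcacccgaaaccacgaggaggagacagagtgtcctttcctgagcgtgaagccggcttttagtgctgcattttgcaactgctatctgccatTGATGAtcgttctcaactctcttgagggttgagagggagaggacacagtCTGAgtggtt
Rnu3b1: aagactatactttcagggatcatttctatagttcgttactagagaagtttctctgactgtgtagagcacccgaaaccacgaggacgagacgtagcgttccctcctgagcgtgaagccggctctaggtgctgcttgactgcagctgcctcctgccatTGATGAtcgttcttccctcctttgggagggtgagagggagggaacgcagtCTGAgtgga
The C/D pair within Rps3 and Snord22 from Snhg1 differ in how their reads were divided, as described further on. C and D boxes are in capitals. Snord15b is at chr7:99479563-99479707 and Snord15a at chr7:99482785-99482932, both on the minus strand, and Snord22 at chr19:8725866-8725991 on the plus strand.
Snord15b: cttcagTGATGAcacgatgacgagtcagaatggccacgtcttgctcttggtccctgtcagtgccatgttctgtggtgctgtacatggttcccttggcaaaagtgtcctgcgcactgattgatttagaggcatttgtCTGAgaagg
Snord15a: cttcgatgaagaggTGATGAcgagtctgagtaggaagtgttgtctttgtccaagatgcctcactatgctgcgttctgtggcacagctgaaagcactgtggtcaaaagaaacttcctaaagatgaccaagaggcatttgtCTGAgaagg
Snord22: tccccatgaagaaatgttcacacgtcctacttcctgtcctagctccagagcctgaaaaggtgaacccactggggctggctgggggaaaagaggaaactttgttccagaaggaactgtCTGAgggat
Gm26447 at chr16:23111301-23111429 (plus strand), in Eif4a2, and Gm22988 at chr11:69669635-69669778 (minus strand), in Eif4a1, had the highest levels of the genes with a Gm number. Gm22988 has an ACA box, in capitals, and Gm26447 has none of the boxes at the places searched. The letters ACA do occur in Gm26447 closer to its end than that place.
Gm26447: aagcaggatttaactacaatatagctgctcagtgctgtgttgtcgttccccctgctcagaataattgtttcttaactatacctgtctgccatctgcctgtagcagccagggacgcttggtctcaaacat
Gm22988: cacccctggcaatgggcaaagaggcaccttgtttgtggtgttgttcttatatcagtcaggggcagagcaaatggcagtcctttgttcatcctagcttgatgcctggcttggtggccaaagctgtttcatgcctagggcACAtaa
Scarna10, at chr6:125186359-125186683 on the minus strand, was the most abundant of all 50, and its first and last 60 bases hold a C box and a D box in capitals.
Scarna10, bases 1 to 60: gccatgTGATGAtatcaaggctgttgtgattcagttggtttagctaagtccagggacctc
Scarna10, bases 266 to 325: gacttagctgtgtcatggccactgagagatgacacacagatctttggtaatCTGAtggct

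The 50 genes held 11207 of 36197643 expected counts of annotated genes in replicate 1 and 12309 of 34358598 in replicate 2. That was 0.0310% (95% Wilson interval 0.0304% to 0.0315%) and 0.0358% (0.0352% to 0.0365%), or 0.0334% ± 0.0034 (SD, n = 2). These intervals, like those of ratios between libraries below, cover counting error only. Scarna10 alone took 38.2% and 39.6% of these counts, and the 5 genes with the highest TPM took 63.2% and 65.1%. In TPM, 7 genes stood at or above 100 TPM in both libraries, namely Scarna10, Gm26447, Snora73b, Gm22988, Snora73a, Snord15b and Snora74a. Another 32 were at or below 50 TPM in both. The median of the 50 was 30.5 TPM in replicate 1 and 35.1 in replicate 2. The SD between the libraries was 10.8% of the mean TPM for the median gene, 0.385% at the least and 63.6% at the most. Since the genes were chosen on these counts, their number and levels are a description. In RNA from whole tissue, more cells of a type and more RNA per cell cannot be told apart.

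**Figure D1:**
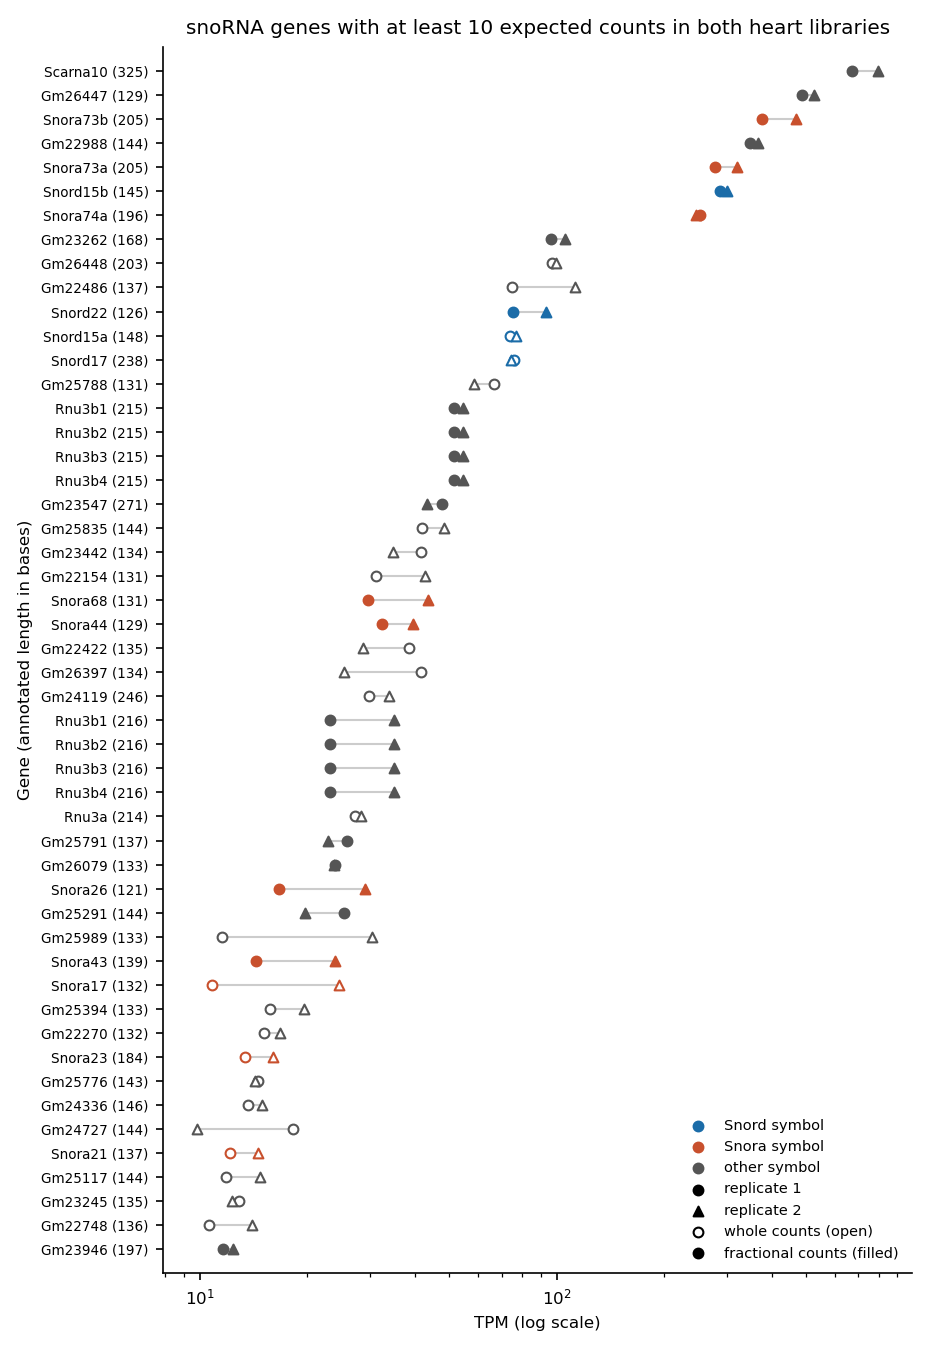
TPM (log scale) of the 50 detected snoRNA genes in replicate 1 (circles) and replicate 2 (triangles), ordered by mean TPM, with the annotated length in bases, coloured by symbol class, open where both expected counts were whole numbers and filled where either was fractional. The 7 genes at the top stand apart from the rest, from 246 TPM for Snora74a in replicate 2 upwards, and the 5 highest have fractional counts.

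The genes just inside the minimum of 10 were Snora17 with 10 and 22 counts in replicates 1 and 2, Snora26 with 10.3 and 17.3, Gm22748 with 11 and 14, and Gm25989 with 11 and 28. Just outside were Gm23925 with 11.6 and 8.62, Snora52 with 16.5 and 8.55, Snora5c with 12.4 and 8.39, and Snora78 with 8 and 9. The 2 sides thus overlapped in single libraries, and 4 snoRNA genes reached the minimum in 1 library only.

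No snoRNA gene shorter than a read was counted, and the detected share was larger among longer genes. All 458 snoRNA genes shorter than 100 bases were listed at 0 counts in both libraries, and the 50 detected genes were 121 to 325 bases long. The effective length, the number of start positions left for a read, was the annotated length less 99 bases in the gene tables, as for reads of 100 bases. Of 130 genes of 100 to 119 bases none was detected, and the highest count among them was 1. The detected share was 21 of 800 genes (2.63%) at 120 to 139 bases, 13 of 88 (14.8%) at 140 to 199 bases and 16 of 31 (51.6%) at 200 bases or more, where 8 of the 16 were Rnu3b entries. Box C/D genes are short, with a median of 84 bases over 98 Snord genes, 87 of them under 100 bases, while all 42 Snora genes had at least 121 bases and a median of 132.5. Among genes of at least 100 bases, 4 of 11 Snord (36.4%), 10 of 42 Snora (23.8%) and 36 of 996 other genes (3.61%) were detected. A count of 0 allows up to 3 counts, but for genes shorter than a read a 0 says nothing of the RNA.

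**Figure D2:**
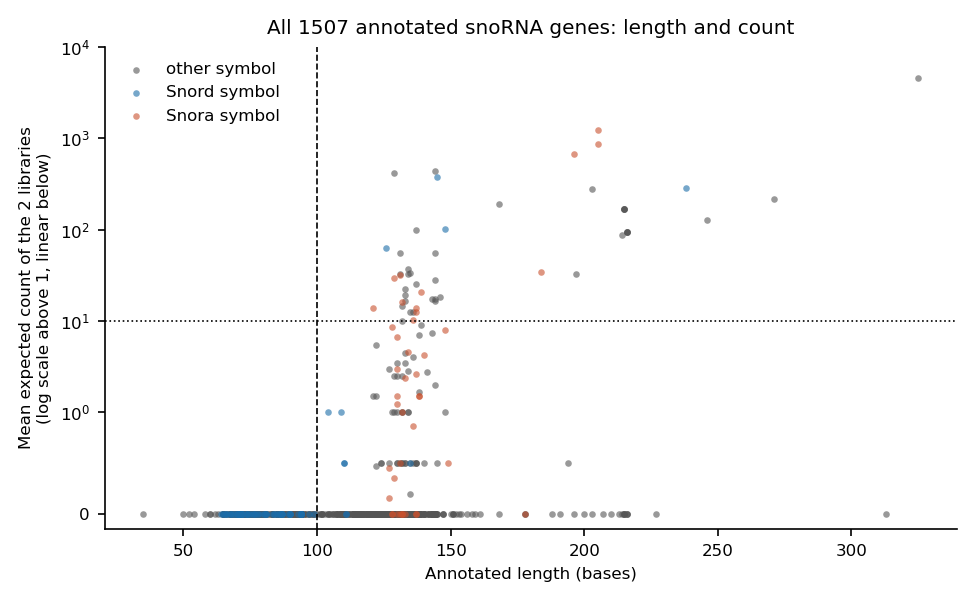
Mean expected count of the 2 libraries (log scale above 1) against annotated length for all 1507 snoRNA genes, coloured by symbol class. The dashed line marks 100 bases, below which all 458 genes are at 0, and the dotted line the minimum of 10 counts.

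U17, the H/ACA snoRNA of ribosomal RNA cleavage, was the most abundant named snoRNA of its class. Snora73b had 1123 and 1343 counts in replicates 1 and 2, or 377 and 467 TPM (422 ± 63.6, SD, n = 2), and Snora73a had 828 and 919 counts, or 278 and 320 TPM (299 ± 29.4). Both were higher in replicate 2, and Snora73b stood above Snora73a in each library, 1.36-fold in replicate 1 and 1.46-fold in replicate 2 on the TPM scale. They lie within Snhg3 and Rcc1, the gene of a chromatin-bound exchange factor for the GTPase Ran, and these hosts were far lower, Snhg3 at 8.33 and 8.66 TPM. The copies have 205 bases each and differ by 7 substitutions, counted from the 5′ end with the base of Snora73b first: A3G, A54G, G111A, C164T, A203G, A204T and A205T. No stretch of 100 bases is identical in both. Gm17300, annotated on the opposite strand over both genes, had 1 and 0 counts.

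Gm26448, in an intron of Rpsa, the gene of a small-subunit ribosomal protein, was 87.8% identical to Snora73b and 88.3% identical to Snora73a. It had 283 and 280 counts, both whole numbers, or 96.8 and 99.2 TPM (98.0 ± 1.70). Snora73b was 3.89-fold and 4.71-fold higher than Gm26448 in TPM, so the 3 genes kept 1 order in both libraries.

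U3, a C/D snoRNA of the earliest cleavages, was spread over 9 detected entries. Rnu3b is annotated at 4 places on chromosome 11 within Tex14, a gene of germ cell bridges at 0.170 and 0.110 TPM in these hearts, and at each place with 2 entries, of 215 and of 216 bases. Each of the 4 shorter entries was given 167.41 and 171.96 counts, and each of the 4 longer ones 76.09 and 111.29. The 4 copies of either length are identical in sequence and the 2 lengths differ by the last base, so which locus the RNA came from cannot be told apart. Summed, the 8 entries held 974 and 1133 counts and 298 and 359 TPM, which would place U3b among the 5 most abundant snoRNAs in either library. Rnu3a, on chromosome 10 and outside any host, had 88 counts in both libraries, or 27.2 and 28.2 TPM. The second Rnu3a entry, 1 base shorter, was listed at 0 in both. Rnu3a and Rnu3b were 85.1% identical.

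Of the other snoRNAs of ribosomal RNA cleavage, 1 was detected. Snord22 (U22) had 57.4 and 68.5 counts, or 75.6 and 93.4 TPM (84.5 ± 12.6). Snord118 (U8), with 135 bases long enough to be counted, had 0 and 1 counts. Snord13 (U13), with 104 bases, had 1 and 1. The 4 Snord14 (U14) genes have 86 to 90 bases and were at 0. The same was true of 19 snoRNA genes of the imprinted cluster on chromosome 7, chosen by symbol (Snord64, Snord107 and Snord116 copies, 67 to 94 bases). Copies under other symbols were not looked for. All 10 snoRNA genes in Gas5 and all 4 in Rpl13a were also at 0. Those hosts were present, Gas5 at 30.1 and 33.5 TPM and Rpl13a at 239.85 and 269.71. In Snhg1, 1 of 8 snoRNA genes was detected, Snord22, and the other 7 are shorter than 100 bases.

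Among C/D guides, Snord15b had 372 and 374 counts, or 287 and 300 TPM (294 ± 8.83), and its neighbour Snord15a had 102 and 102 counts, or 74.1 and 76.7 TPM (75.4 ± 1.88). Both lie within Rps3, which codes for a small-subunit ribosomal protein and stood at 121 and 139 TPM. Snord15b was thus 3.88-fold and 3.91-fold above Snord15a although they share a host. Snord17, in Snx5, had 296 and 281 counts, or 75.8 and 74.5 TPM (75.1 ± 0.891), the smallest relative difference between libraries of the 4 Snord genes after length scaling. Genes with a Gm number added to this class by sequence. Gm22486, in Ptcd3, carries both boxes and has the coordinates of the gene that RefSeq calls Snord94, and it had 80 and 116 counts, or 74.9 and 112 TPM (93.7 ± 26.6). Gm23547, in Phb2, the gene of prohibitin 2, had 230 and 202 counts, or 47.6 and 43.2 TPM. Gm25835, in Eif4a1, had 53 and 59 counts, or 41.9 and 48.3 TPM. Of these 3 genes Gm22486 differed most between the libraries, by 1.53-fold (1.14 to 2.06).

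Of the other H/ACA genes, Snora74a (U19) had 686 and 648 counts, or 252 and 246 TPM (249 ± 4.01), and was the only Snora gene besides U17 above 100 TPM. The remaining 7 lay between 13.4 and 36.6 TPM on average. Snora68 had 26.6 and 37.9 counts (29.5 and 43.7 TPM), and Snora44, in Snhg12, had 27.3 and 32.2 counts (32.3 and 39.5 TPM). Snora26, in Dancr, was at 16.6 and 28.9 TPM, Snora43 at 14.3 and 24.0, Snora17 at 10.8 and 24.6, Snora23, in Ipo7, at 13.4 and 16.0, and Snora21, in Rpl23, at 12.2 and 14.6. Each of these 7 had fewer than 40 counts per library, and all 7 were nominally higher in replicate 2. Gm22988, which ends with an ACA box, had 439 and 448 counts, or 347 and 367 TPM (357 ± 14.0). In TPM it exceeded all of these genes and Snora73a. In counts it was below both Snora74a and Snora73a, which are longer. Gm25788 and Gm22154, ACA-box genes in Pabpc4, a gene of a cytoplasmic poly(A)-binding protein, had 60 and 51 counts (66.7 and 58.7 TPM) and 28 and 37 counts (31.1 and 42.6 TPM). Gm23442, in Prrc2a, was at 41.7 and 34.7 TPM, Gm22422, in Trmt10c, at 38.5 and 28.7, and Gm26397, in Tomm20, at 41.7 and 25.3.

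Scarna10 (U85), a composite C/D and H/ACA RNA of Cajal bodies that modifies the U5 small nuclear RNA, is typed as a snoRNA in the annotation although its symbol names it a Cajal body RNA. It had 4279 and 4871 counts, or 673 and 794 TPM (734 ± 85.3), the highest of the 50 genes in both libraries. It is 325 bases long, the longest of the set, and lies in Ncapd2, the gene of a condensin subunit, at 11.8 and 13.5 TPM. Of 51 genes with the separate biotype scaRNA, 9 reached the same minimum, and Scarna2 had 3355 and 3855 counts, or 379 and 451 TPM. Gm26447 and Gm23262 were the most abundant genes with no box at the places searched near their ends and no class in their symbol. Gm26447 had 411 and 429 counts, or 488 and 527 TPM (507 ± 27.6), and Gm23262, in Eif4g2, had 186 and 198 counts, or 96.1 and 106 TPM (101 ± 6.70). Gm24119, in Slc25a3, had 123 and 135 counts but 29.8 and 33.8 TPM, as it is 246 bases long.

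By symbol, the median of the 4 C/D genes was 75.7 TPM in replicate 1 and 85.1 in replicate 2, and that of the 10 H/ACA genes 23.1 and 34.2. The C/D median was 3.28-fold and 2.49-fold the H/ACA median (1.71 and 1.31 on the log2 scale). The ranges overlapped in full, as C/D genes had mean TPM from 75.1 to 294 and H/ACA genes from 13.4 to 422. The order of the medians held for the minimum of 10 counts. The 3 H/ACA genes with at least 50 counts in both libraries stood at 249 to 422 TPM on average. Only 14 of the 50 genes have a class in their symbol, so the genes were also sorted by the boxes at their ends. There 19 genes had a D box only, with medians of 51.3 and 54.6 TPM, and 23 had an ACA box only, with medians of 25.4 and 25.3. The D box genes were 2.02-fold and 2.16-fold higher, and 9 of the 19 were U3 entries. Members of a class share their libraries and their size range and are not replicates, and no test was made between selected genes. Counts scaled to the library total alone, without length, put the C/D median 2.65 higher on the log2 scale.

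The boxes were searched in the sense strand of the annotated transcripts: TGATGA within the first 20 bases (C box), CTGA starting within the last 12 bases (D box), and ACA with 3 bases after it at the end. The windows of the C and D box do not overlap in any of the 50 genes. Of the 4 C/D genes, 3 had both boxes and Snord22 had the D box alone, and none had the ACA box. Among all 98 Snord genes 66.3% had both. Of the 10 H/ACA genes, 7 had the ACA box and none the C box, against 83.3% and none of all 42 Snora genes. Snora74a, Snora44 and Snora17 lacked the ACA letters at that place, and Snora17 and Snora43 held CTGA near the end. Over all 50 genes 40.0% had the D box and 48.0% the ACA box, against 30.1% and 18.3% of the 1507 snoRNA genes and 9.34% and 25.5% of the 910 that have the lengths of the detected genes. Within those lengths 19 of 81 genes with a D box only (23.5%), 23 of 228 with an ACA box only (10.1%) and 7 of 597 with neither (1.17%) were detected. The 19 include Rnu3a and the 8 Rnu3b entries, which differ from each other by the last base at most. These entries also count toward the 40.0%, so the D box shares rest in part on 1 RNA annotated many times. The 7 with neither box were Gm26447, Snora74a, Gm23262, Snora44, Gm24119, Gm24336 and Gm23946. A match of letters does not show a working box, and a missing match says only that the letters are not in the window.

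Position in a host gene went with detection. Of the 50 genes 47 (94.0%) lay wholly inside another gene on the same strand, all of them in a protein-coding or long noncoding gene, and the exceptions were Rnu3a, Snora43 and Snora17. Of the 860 undetected snoRNA genes of the same lengths 25.8% lay in such a gene. Among the 910 genes of these lengths, 39 of 183 (21.3%) whose host was at 1 TPM or more were detected, 8 of 74 (10.8%) whose host was lower, all 8 being Rnu3b entries in Tex14, and 3 of 653 (0.459%) with no host. With an end box and a host at 1 TPM or more the share was 32 of 127 (25.2%), so 95 such genes were not detected, 51 of them with 0 counts in both libraries. With neither end box it was 7 of 56 (12.5%) at such a host and 0 of 541 with no host or a lower one. The main hosts of 40 detected genes were protein-coding and included genes of translation, among them Eif4a1, Eif4a2, Eif4g2, Rps3, Rpsa, Rpl23 and Rpl5. Noncoding hosts included Snhg1, Snhg3, Snhg12 and Dancr.

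Host and snoRNA levels were only weakly related across genes. Leaving out Tex14, 39 snoRNA genes had 35 hosts with a median of 24.98 and 26.8 TPM, and 19 of the 39 were above their host in both libraries while 17 were below it in both. Across these 39 genes Pearson's r between log2 TPM of snoRNA and host was 0.11 in replicate 1 and 0.11 in replicate 2, and Spearman's rho was 0.16 and 0.17. These are descriptions across genes that share their library and, in 4 pairs, a host. Slc25a3, the mitochondrial phosphate carrier, was at 996 and 1010 TPM with Gm24119 at 29.8 and 33.8, and Rpl23, of the large ribosomal subunit, was at 211 and 215 TPM with Snora21 at 12.2 and 14.6. At the other end, Scarna10 and both Snora73 genes stood far above hosts of about 10 TPM. Genes in 1 host also differed: Gm22988 was 8.28-fold and 7.59-fold above Gm25835 in Eif4a1, while Gm25788 was 2.14-fold and 1.38-fold above Gm22154 in Pabpc4. All these levels are from the gene tables. A second set of tables, described below, gave some hosts other levels. There Rpl23 was higher, at 442 and 450 TPM, and Rps3 lower, at 94.2 and 103. Reads of the processed snoRNA and of unspliced host RNA cannot be told apart in the gene tables.

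**Figure D3:**
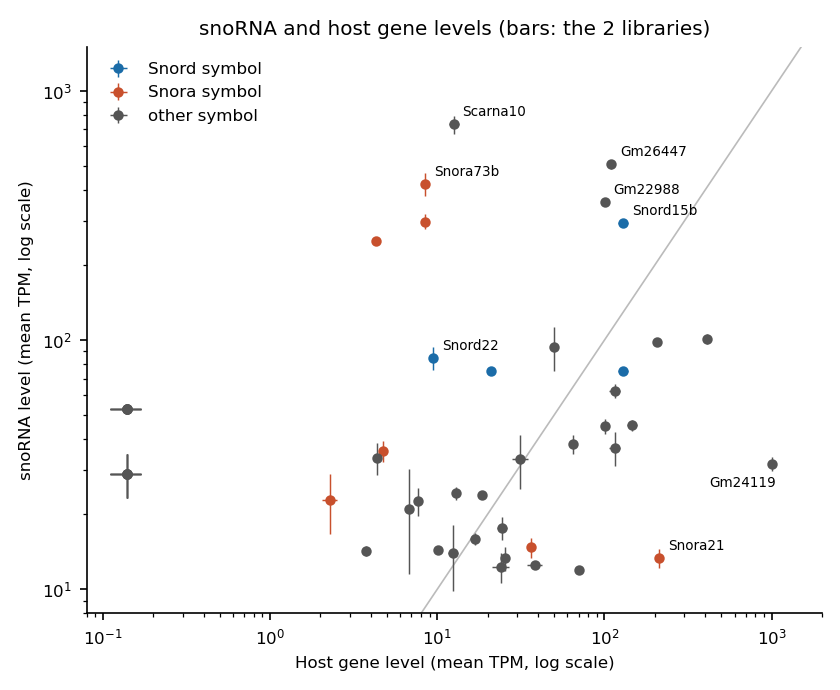
Mean TPM of each snoRNA gene against mean TPM of its highest host gene (both log scales) for 46 genes with a host, with bars reaching to the 2 libraries and the line of equal levels in grey. Points lie on both sides of the line, and the Rnu3b entries overlie each other at the left because Tex14 is near 0.

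Expected counts were whole numbers for some genes and fractional for others, as a fractional count arises when a read is divided between annotated features. A count was called fractional when it lay more than 0.005 from a whole number in either library. That was so for 26 of the 50 genes (52.0%), against 17.9% of all 15866 annotated genes with at least 10 counts in both libraries, and in both libraries for 25 of them, against 15.1%. By class, 2 of 4 C/D, 7 of 10 H/ACA and 17 of 36 other genes were fractional. The 24 whole-count genes held 12.7% and 11.9% of the counts of the 50, with medians of 22.7 and 26.7 TPM, and the 26 fractional genes had medians of 49.5 and 49.2 TPM. The most abundant whole-count gene was Gm26448, followed by Gm22486, Snord15a and Snord17.

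Fractional counts went with sequence shared with other annotated transcripts. Of the 26 fractional genes 24 shared a stretch of 100 identical bases with another annotated transcript, and of the 24 whole-count genes 2 did. The 2 fractional genes without such a stretch were Snora73b, close to Snora73a, and Gm25291, which differs from Gm22988 by the substitutions G24A, T44A, A70G and A143T. The 2 whole-count genes with one were Rnu3a, whose shorter entry was at 0, and Gm24727, which shares 48.9% of its 100-base stretches with the snoRNA gene Gm23123. For 9 fractional genes outside U3 the whole sequence lay within 1 or more transcripts of the host, mostly with a retained intron. The share of counts that the gene tables gave to the snoRNA rather than to those transcripts ranged from 99.2% and 99.6% for Snora74a through 92.3% and 94.5% for Gm26447, 92.0% and 87.2% for Snord15b and 82.9% and 82.1% for Gm22988 to 40.2% and 48.1% for Snord22 and 20.1% and 27.6% for Snora26. For Snord22 these were 57.4 and 68.5 counts beside 85.2 and 73.9 for 3 transcripts of Snhg1. Snord15a, whole, lies in the same host as Snord15b but in no annotated exon.

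A second set of transcript tables deposited for the same libraries gave another picture. In it 49 of the 50 genes had 0 estimated counts in both libraries, and Scarna10 had 1 and 3. Its effective lengths were 335 and 334 bases below the length in long transcripts, which is more than the longest detected gene has. For the 50 genes themselves it listed effective lengths of 32.4 to 74.4 bases in replicate 1 and 31.0 to 71.9 in replicate 2. Why their counts were 0 was not tested. The host transcripts that span the 9 genes held 380.35 and 404.33 counts in the first tables and 3483 and 3568 in the second, against 2437 and 2482 for snoRNA and transcripts together in the first. This held for each of the 9, with more counts for the spanning transcripts in the second tables in both libraries. The single spanning transcript of Snora74a had 5.21 and 2.61 counts in the first tables and 777 and 750 in the second, that of Gm22988 (Eif4a1-202) 90.6 and 98.0 against 986 and 1015, and that of Snord15b (Rps3-204) 32.3 and 55.1 against 608 and 641.

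**Figure D4:**
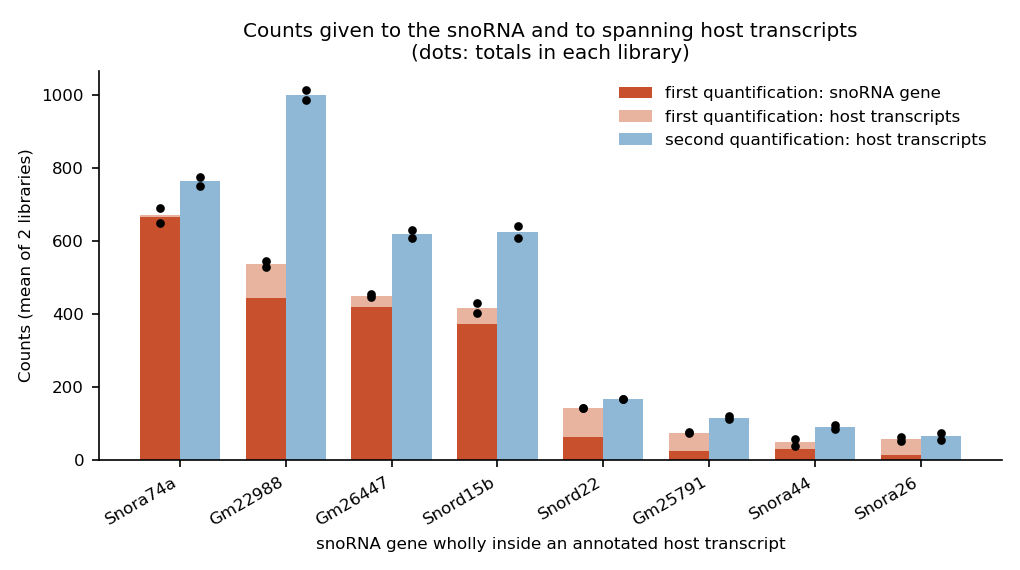
Counts of 8 of the 9 snoRNA genes wholly inside annotated host transcripts, mean of 2 libraries, with the snoRNA (dark) and the spanning host transcripts (light) in the first quantification stacked, and the spanning transcripts in the second quantification beside them. Dots are the totals in each library, and the second bar is the taller one for all 8 genes.

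Some close copies differed widely in level and others did not. Gm22988 in Eif4a1 was 13.7-fold and 18.7-fold above Gm25291 in Sec24a, with which it is 97.2% identical, and 19.1-fold and 37.3-fold above Gm24727 in Gsr (93.8% identical). Gm25117 in Nap1l1, 91.0% identical, was 29.2-fold and 24.9-fold lower than Gm22988. These 4 genes all have 144 bases, so the ratios hold per count and per TPM. The 3 lower genes had few counts, Gm25291 32.1 and 24.0, Gm24727 23 and 12, and Gm25117 15 and 18. Of the 4, Gm22988 alone lies wholly inside a host transcript, so its count depends on how reads were divided. Gm25788 and Gm22154 differ by T28C, T29C, T96C and C131T and had whole counts. Gm25394 in Iars and Gm25989 in Qtrt2, 91.0% identical, changed order between the libraries, with 15 and 18 counts for the first and 11 and 28 for the second. Counting each sequence once, with the Rnu3b entries as 1, the 50 genes were 43 sequences.

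The 2 libraries ranked the genes alike. Across the 50 genes Pearson's r of log2 TPM was 0.97 and Spearman's rho 0.92, as a description across genes that include the 8 Rnu3b entries. In counts scaled to the total of annotated genes (CPM), 39 of the 50 (78.0%) were nominally higher in replicate 2, against 60.6% of the 15866 genes, and with each sequence counted once it was 32 of 43. Under TMM or DESeq2 scaling it was 37 of 50. The median log2 ratio of replicate 1 over replicate 2 was -0.16 over the 50 genes and -0.05 over all genes, so the median snoRNA gene was 1.11-fold higher in replicate 2. Other short RNAs lay near this, with -0.18 over 30 small nuclear RNA genes of the same lengths and -0.16 over the 9 scaRNA genes. For 10 genes (20%) the exact Clopper-Pearson 95% interval of the ratio lay wholly on the side of replicate 2, against 20.3% of all genes, and for none on the side of replicate 1, against 10.7%. The 10 include the longer Rnu3b entries, which have 1 sequence and the same counts, 76.09 and 111.29, and so are not separate measurements.

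The rule of a call was a ratio of at least 2 with an interval that leaves out 1. No detected snoRNA gene was called higher in replicate 1, against 1.02% of all genes, and 2 of 50 were called higher in replicate 2, against 0.637%. These were Gm25989, with 11 and 28 counts and a ratio of 2.68 (1.29 to 5.97), and Snora17, with 10 and 22 counts and a ratio of 2.32 (1.05 to 5.48). Both counts are near the minimum, and none of the 26 genes with at least 50 counts in both libraries was called. Of the genes with at least 50 counts in both libraries, those with an interval above 1 were Gm22486 at 1.53-fold (1.14 to 2.06), Scarna10 at 1.20-fold (1.15 to 1.25), Snora73b at 1.26-fold (1.16 to 1.37), Snora73a at 1.17-fold (1.06 to 1.29) and the 4 longer Rnu3b entries. These entries stood at 1.54-fold (1.14 to 2.09), but the 4 shorter ones at 1.08-fold (0.872 to 1.35), although the entries differ by the last base alone. Both intervals take divided counts as if they were reads of that entry. The TPM interval deposited for the shorter Rnu3b1 entry ran from 0.000678 to 121 in replicate 1. Summed, the 8 entries held 974 and 1133 counts, or 0.00269% and 0.00330% of annotated counts in replicates 1 and 2. Intervals of TPM deposited with the tables did not overlap between the libraries for 5 genes, Scarna10, Snora73b, Snora73a, Gm22486 and Gm25989. With 1 group there was no test across samples.

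**Figure D5:**
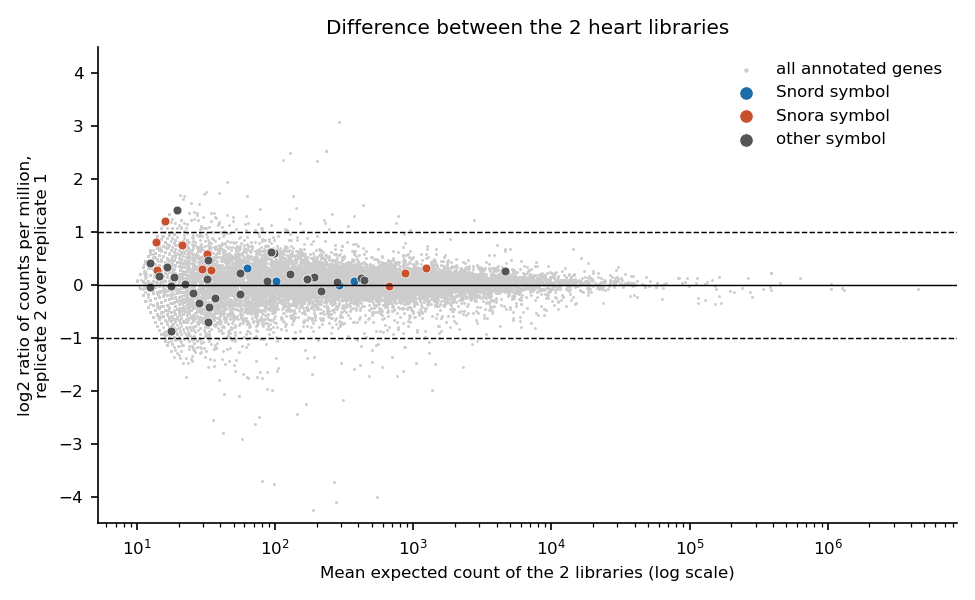
log2 ratio of CPM, replicate 2 over replicate 1, against the mean expected count (log scale) for 15866 annotated genes (light points) and the 50 snoRNA genes (coloured by symbol class), with dashed lines at 2-fold. Only Gm25989 and Snora17, both with few counts, lie beyond the line, on the side of replicate 2.

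The messenger RNAs of the proteins that bind snoRNAs were all present, on the TPM scale. Fbl, the methyltransferase of C/D particles, was at 13.04 and 15.03 TPM, and its partners Nop56 at 14.6 and 12.9, Nop58 at 12.4 and 13.6 and Snu13 at 20.4 and 19.4. Dkc1, the pseudouridine synthase of H/ACA particles, was at 10.9 and 9.22 TPM, with Nhp2 at 8.17 and 10.2, Nop10 at 23.9 and 22.8 and Gar1 at 4.67 and 7.14. The median of the 4 C/D proteins was 13.8 and 14.3 TPM and that of the 4 H/ACA proteins 9.51 and 9.73. All 10 assembly factors had a mean of at least 1 TPM, from 1.35 for Shq1 to 12.4 for Pih1d1, the subunit of a chaperone complex that builds the particles. The 6 processing enzymes ranged from 2.76 TPM for Dbr1, which opens intron lariats, to 19.1 for Exosc10, a nuclease of the nuclear exosome. Of the Cajal body genes, Coil was at 1.70 and 2.44 TPM, Wrap53, whose product brings RNAs to Cajal bodies, at 1.80 and 3.12, and Smn1 at 7.22 and 7.23. None of these genes was called different between the libraries. Of all 15866 genes, 1.02% were called higher in replicate 1 and 0.637% in replicate 2, so lists this short would hold few or no calls.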

How the data were processed

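Heart total RNA-seq of 1 group of 2 libraries was analysed from deposited tables. Per the file headers, the gene tables hold an expected count per gene, not normalized, with the authors' TPM and posterior mean TPM. The bounds of its interval were deposited as a score of precision. A second set of deposited transcript tables holds estimated counts and TPM. The readme files name mm10 and GENCODE M21. Aligner, quantifiers, versions and any use of strand were not given in the sources used here.

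Replicates 1 and 2 held 36404376 and 34569708 expected counts, of which 0.568% and 0.611% lay outside annotated genes and were left out. 1 host gene is not reported here. The 86 annotated genes without a row in the second tables were left out there. Ratios between libraries used counts scaled to the total of annotated genes (CPM), rounded to whole counts for exact Clopper-Pearson intervals at 95%, over all 15866 annotated genes with at least 10 counts in both, and the call rule was tested on simulated data. A count of 0 allows 3 counts. Sequences and positions came from GENCODE M21, RefSeq names from GRCm38.p6 at identical coordinates, and identity from edit distance over the longer sequence (edlib 1.3.9.post1), with pairs kept from 80% upwards. Alternatives were TMM (edgeR 4.0.16), DESeq2 1.42.0 size factors (R 4.3.3), other scales, minimums and tables. Figures came from matplotlib 3.10.9, intervals from scipy 1.17.1, and tables from pandas 2.3.3 and numpy 2.4.6 under Python 3.11.15.

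The genes, lists and tests were chosen with earlier results of these data known. Named genes are the 10 with the highest mean TPM of each class, those called different between the libraries, 4 on each side of the count minimum, all copies of U3, U8, U13, U14, U22 and U17, snoRNAs of imprinted clusters and of Gas5, Rpl13a and Snhg1, the 6 with the largest fractional part or gap between the tables, and the snoRNP protein lists. Others named for an exception, a shared host or a close copy were chosen after their values were seen.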

Additional observations from a re-analysis of the deposited data

How the results depend on the processing

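The number of detected genes was 59 at a minimum of 5 counts, 37 at 20, 26 at 50 and 17 at 100, and 59 with scaRNA genes added. H/ACA genes numbered 6, 3 and 3 at minimums of 20, 50 and 100, and C/D genes 4, 4 and 3. In the second quantification all these numbers, both class medians and the number of fractional counts were 0, so no ratio of classes or libraries could be had from it. Without replicate 1 or without replicate 2, 51 to 53 genes were detected, of which 4 were C/D and 10 to 12 H/ACA. Without one library or the other, the C/D median was 75.7 to 85.1 TPM, the H/ACA median 23.1 to 34.2 TPM and the log2 ratio of the medians 1.31 to 1.71, against 1.45 for the mean of both.

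In whole-count genes alone, 2 C/D and 3 H/ACA, the H/ACA median was 14.7 TPM and the log2 ratio 2.35. It was 2.65 in CPM and, chosen after seeing the data, 2.18 in counts per annotated base. By boxes at the ends, also chosen after seeing the data, the C/D median was 53.0 TPM. The C/D median was above the H/ACA median in each setting that gave a ratio, but no ratio was computed at other count minimums. At 50 counts the 3 H/ACA genes left had mean TPM from 249 to 422. The 4 C/D genes, all kept there, had a median of 79.9, so the order was reversed. The 2 genes called higher in replicate 2 became 1 with posterior mean TPM and 0 at a minimum of 50 counts. The median log2 ratio between libraries was -0.10 with DESeq2 size factors, and negative in each setting tried. Leaving out a library could not be done for results that compare the libraries. Depth limits the lower genes, as 24 of the 50 had under 50 counts in 1 library or both.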
